A study of Arabidopsis thaliana with 16 samples.

Results

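The comparison described here sets seedlings of the hda6 mutant of Arabidopsis thaliana, homozygous for a mutation in the histone deacetylase gene HDA6 (labelled hda6(-/-)), against the wild type Col-0. Its members are the 2 hda6 libraries and the 2 wild-type libraries, 4 of the 16 RNA-seq libraries of the series, and all 32548 genes of the deposited table were considered. Of these genes, 20846 passed the filter on low values and were tested, and the account turns on the 18637 of them that the wild type already expressed, with a wild-type mean of at least 20 normalised counts. The other 12 libraries are 2 each of hda19, sant1234, mbd124, esant12, arid14 and rxt3, all homozygous mutants. Here sant1234 is mutant in SANT1, SANT2, SANT3 and SANT4, mbd124 is mutant in MBD1, MBD2 and MBD4, esant12 in ESANT1 and ESANT2, and arid14 in ARID1 and ARID4. They serve only to show where hda6 differs from them.

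All plants were 14 days old and had grown on Murashige and Skoog plates in a 16 h photoperiod, kept at 23 °C by day and, for the 8 h night, at 22 °C. Total RNA of the seedlings, extracted with Trizol, was sequenced as single-end reads of 50 bp. The labels name neither the hda6 allele nor the plants pooled in a library. Whether the 2 libraries of a genotype are separate pools is not given either, so the spread between them may be technical. Every p-value and standard error below comes from a fit of all 8 genotypes together. They rest on the spread within all of these genotypes, not within hda6 and wild type alone.

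HDA6 belongs to the RPD3 class of histone deacetylases, enzymes that take acetyl groups off histone tails and are associated with low transcription. In Arabidopsis it is known for keeping transposons, ribosomal RNA gene copies and other methylated loci silent together with DNA methylation. It is also known for acting at ordinary genes of flowering, jasmonate, abscisic acid and acetate responses, through partners that include TOPLESS-type corepressors and FVE.

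The recovered read totals of the 4 libraries were 19259579 to 19522197, so depth was nearly equal. The HDA6 transcript itself stood at 429.5 and 425 normalised counts in the wild-type libraries and at 519 and 450.2 in the hda6 libraries (log2 fold change 0.18 ± 0.08, with its standard error here and below; limma, adjusted p = 0.14). Both mutant values lay above both wild-type ones, so the level of this transcript is no check of the genotype label. HDA6 also overlaps a neighbouring gene on its own strand, and reads of the overlap may be shared. Markers of mesophyll, guard cells, phloem, xylem, endodermis and root hairs were detected in all 4 libraries, and 3 of the 6 shoot meristem markers (WUS, CLV3 and CUC2), 3 of the 5 flower markers (AP3, AG and SHP1) and 6 of the 7 pollen markers stayed under 10 in each. The summed mesophyll markers stood at 754753 and 726709 in wild type and at 838783 and 756554 in hda6. The summed shoot meristem markers stood at 939.6 and 877 in wild type and at 1109 and 1130.05 in hda6, the flower markers at 60.7 and 57.9 against 94.4 and 80.9, and the pollen markers at 80.5 and 96.9 against 145 and 139.8. These 3 sums and that of mesophyll were higher in both hda6 libraries than in both wild-type ones. So were the sums of xylem (2442 and 2736 against 2874 and 2963), root cap and root tip (25.9 and 21 against 28.4 and 29.9) and seed markers. The sums of guard cell, shoot epidermis, trichome, phloem, endodermis and stele, and root hair markers overlapped between the genotypes. The part of these sums in the results below was not tested. As these are bulk samples, fewer cells of a type and less RNA per cell cannot be told apart.

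Among the expressed genes, 1858 (9.97%) were higher and 2582 (13.9%) lower in hda6 at an adjusted p under 0.05. Over all tested genes the corresponding counts were 2343 higher, or 11.2% of the tested genes, and 2609 lower, or 12.5%. The changes were mostly small: 57.9% of the expressed genes that were higher and 83.04% of those that were lower changed by less than 1.5-fold. At least 2-fold changes were found for 290 expressed genes in the upward and 105 in the downward direction, and at least 4-fold changes for 23 and 6; over all tested genes the shares called at 2-fold or more were 3.6% and 0.619%. The median log2 fold change was -0.015 over all tested genes and -0.030 over the expressed ones. At 62.2% of the tested genes both hda6 libraries lay on 1 side of both wild-type libraries, so this order alone does not set a gene apart. Calls depended on both libraries of each genotype: 936 of the higher and 836 of the lower calls were kept when each of the 4 libraries was left out in turn. Without hda6 replicate 2 the expressed genes called were 854 higher and 1210 lower, without wild-type replicate 1 they were 1072 and 1473, and without wild-type replicate 2 they were 1399 and 1518. Calls named below were kept without each library unless a sentence says otherwise.

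**Figure D1:**
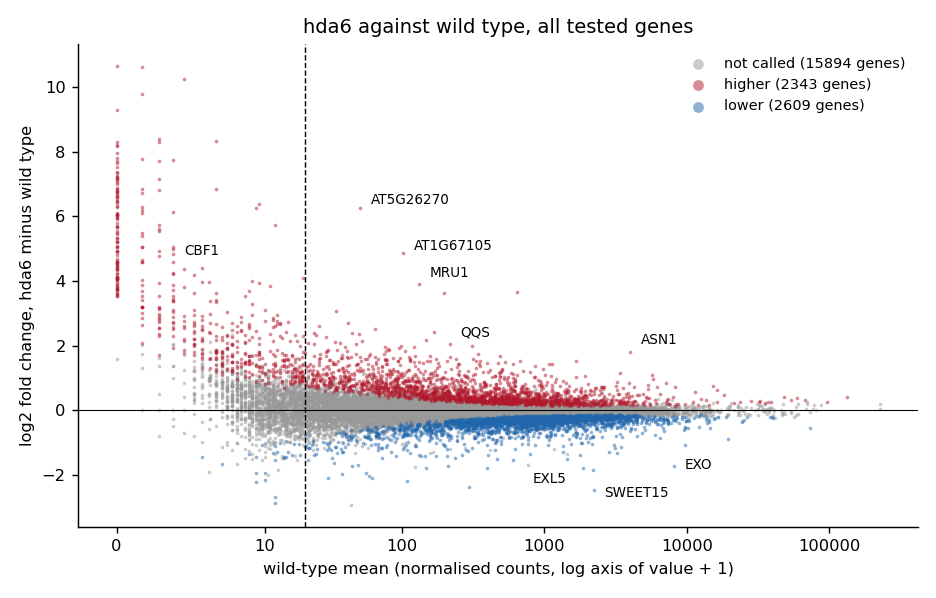
Each point is 1 of the 20846 tested genes, with its wild-type mean in normalised counts on a log axis (value + 1) and its log2 fold change in hda6; the dashed line marks a wild-type mean of 20. Of the labelled genes right of the line, AT5G26270, AT1G67105 and MRU1 stand farthest above 0 and SWEET15, EXL5 and EXO lie lowest.

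The largest rise at an expressed gene was that of AT5G26270, an uncharacterised protein-coding gene of 3 exons on chromosome 5 (TAIR10.1, 9206375 to 9208136, plus strand). It read 51.7 and 48.95 in wild type and 3977 and 3909 in hda6, a 78.4-fold difference (log2 fold change 6.26 ± 0.19, adjusted p = 1.6e-10). The 12 libraries of the other mutants ranged from 28.02 to 149.9, so no library outside hda6 came near the mutant level. An annotated long noncoding RNA, AT5G04225, lies across it on the other strand and is listed at 0 in all 4 libraries. Other genes described here also overlap an annotated gene on the opposite strand (RING1A, RING1B, CBF3, PUP7, HDT2, STP1, WRKY33, WRKY40, ERS1, SMR1, AT3G19680, RNR2A, HDT1, ASN1, XTH15, GLDP1 and TPR3) or on their own strand (WAKL2 and EMB3108), and as the strand setting of the counting is not stated, reads of such overlaps may be shared.

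The noncoding RNA gene AT1G67105, of 1 exon on chromosome 1 (25057479 to 25058264), read 118 and 83.9 in wild type and 2805 and 3018 in hda6 (log2 fold change 4.85 ± 0.25, adjusted p = 2.2e-08). MRU1, named for its response in the methionine overproducer mto1, stood at 117 and 145 in wild type and at 1894 and 2006 in the mutant (log2 fold change 3.89 ± 0.13, adjusted p = 3.8e-10). Both genes thus had hda6 libraries more than 10 times above every wild-type library. AT5G35480, which is the next annotated gene on chromosome 5 and lies in the opposite orientation to MRU1, rose with it, from 196 and 198 to 2339.6 and 2502 (log2 fold change 3.61 ± 0.18, adjusted p = 2.2e-08). A second noncoding RNA gene, AT4G04223 on chromosome 4 (2036511 to 2037816), went from 46.8 and 20.98 to 268 and 277 (log2 fold change 3.08 ± 0.33, adjusted p = 1.9e-05).

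QQS, an orphan gene known for its influence on how carbon is divided between starch and protein, read 209.8 and 222 in wild type and 903 and 907 in hda6 (log2 fold change 2.06 ± 0.40, adjusted p = 0.0021). The 2 wild-type libraries were close to each other, as were the 2 hda6 libraries. AT5G01320, annotated as a pyruvate decarboxylase of the pathway to acetate and ethanol, rose from 21.9 and 24.98 to 124 and 128 (log2 fold change 2.38 ± 0.22, adjusted p = 5.4e-06). It lies beside its paralogue PDC3, and with reads of 50 bp close copies can share reads. SUC5, a sucrose transporter, rose from 21.9 and 24.98 to 122 and 81.8 (log2 fold change 2.05 ± 0.26, adjusted p = 8.7e-05).

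AT3G01345 shows how far the 2 wild-type libraries could differ. It read 97.1 and 1193 in wild type and 4455 and 4193 in hda6 (log2 fold change 3.66 ± 0.95, adjusted p = 0.013), so the wild-type libraries were more than 10-fold apart. The call was lost without wild-type replicate 1 (adjusted p = 0.17), without hda6 replicate 1 (0.095 as adjusted p) and without hda6 replicate 2 (adjusted p = 0.1). It was also lost with DESeq2 (adjusted p = 0.099) and with a pseudocount of 0.1 (adjusted p = 0.092).

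**Figure D2:**
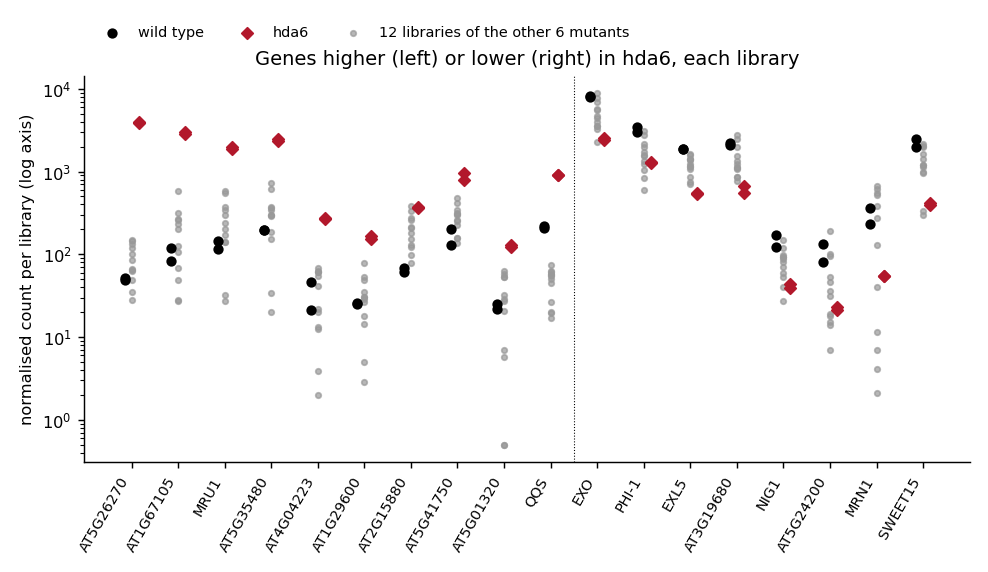
Normalised count of 18 genes in every library, on a log axis: black circles are the 2 wild-type libraries, red diamonds the 2 hda6 libraries and grey points the 12 libraries of the other 6 mutants, where a value of 0 is drawn as the lowest point. For each gene the hda6 libraries lie on 1 side of both wild-type libraries, as they do at 62.2% of all tested genes. For AT5G26270, AT1G67105 and QQS the hda6 libraries also lie above every grey point.

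Among the genes that fell, SWEET15, a sucrose exporter also called SAG29 for its rise in senescent leaves, went from 2477 and 1975 to 412 and 392, a 5.53-fold drop (log2 fold change -2.46 ± 0.13, adjusted p = 2.4e-08). AT3G19680, which encodes a protein with a domain of unknown function, read 2242 and 2120.1 in wild type and 659.9 and 545 in hda6 (log2 fold change -1.86 ± 0.16, adjusted p = 2.1e-06). NIG1, a calcium-binding transcription factor of the bHLH class, fell from 169 and 124 to 39.6 and 43.9 (log2 fold change -1.77 ± 0.27, adjusted p = 0.00031). The subtilase gene AT5G45650 fell from 668 and 538 to 177 and 239.6 (log2 fold change -1.54 ± 0.17, adjusted p = 2.5e-05). None of these 4 genes had overlapping wild-type and hda6 libraries, which the rule for naming the largest changes required. Each of the 4 calls was kept without any 1 library. LCR68, of the defensin-like cysteine-rich peptides, fell from 1602 and 1478 to 722 and 762 (log2 fold change -1.05 ± 0.06, adjusted p = 5.3e-08).

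The EXORDIUM family encodes secreted proteins of which EXO is known as a brassinosteroid-responsive promoter of leaf cell expansion. This family was singled out after its values were seen. Of its tested members 57.1% fell and 28.6% rose, beside 12.5% and 11.2% of all tested genes. Of its 7 tested members, 4 fell and 2 rose, and both rises and 2 of the falls kept their call without each library. EXO, the most abundant, dropped from 8134 and 8029 to 2507 and 2433 (log2 fold change -1.71 ± 0.25, adjusted p = 0.00027), and EXL5 from 1896 and 1864 to 543 and 541 (log2 fold change -1.79 ± 0.18, adjusted p = 9.9e-06). EXL4 moved the other way, from 321 and 385 to 625 and 554 (log2 fold change 0.74 ± 0.10, adjusted p = 0.00013), as did EXL2, from 1644 and 1974 to 2894 and 2879 (log2 fold change 0.68 ± 0.12, adjusted p = 0.0015). The family therefore split. EXO and EXL5 were also lower than in the other 6 mutants, with differences of -0.93 ± 0.19 (adjusted p = 0.0039) and -1.09 ± 0.14 (adjusted p = 7.9e-05) on the log2 scale.

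Wall-loosening genes showed the same mixture. Of 52 tested expansin and xyloglucan hydrolase genes, which cut and rejoin or loosen the wall polymers during growth, 10 rose (19.2%) and 13 fell (25%). Over all tested genes the shares were 11.2% and 12.5%. The median log2 fold change of the list was -0.08, and 16 more members were not tested. XTH27 fell from 6072 and 6829 to 3697 and 3438 (log2 fold change -0.85 ± 0.08, adjusted p = 6.4e-06) and XTH12 from 178 and 171 to 82.3 and 88.8 (log2 fold change -1.02 ± 0.16, adjusted p = 0.00043). XTH15 rose from 291 and 375 to 843 and 809.6 (log2 fold change 1.32 ± 0.24, adjusted p = 0.0014), and XTH19 from 1067 and 1032 to 1644 and 2227 (log2 fold change 0.87 ± 0.14, adjusted p = 0.00055). In each of the 4 the mutant libraries lay clear of the wild-type ones, and 4 of the 10 rises and 5 of the 13 falls were kept without each library.

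Genes that respond early to touch and wounding were the list with the largest share of rises, 14 of 24 tested members (58.3%) against 11.2% of all tested genes, with 1 fall. Like the other lists, it was chosen with earlier results of these data known, so its share is not independent of them. Their median log2 fold change was 0.82, and 8 of the 14 rises were kept without each library. WRKY40, a repressor in defence and abscisic acid responses, rose from 283 and 399.6 to 961 and 1322 (log2 fold change 1.74 ± 0.24, adjusted p = 0.00014). WRKY33, a regulator of camalexin synthesis, rose from 965 and 1209.9 to 2749.9 and 3136 (log2 fold change 1.44 ± 0.16, adjusted p = 2.5e-05). The hda6 libraries held over 2 times the wild-type level at both. CML38, a calmodulin-like calcium sensor, rose from 126 and 101 to 262 and 444 (log2 fold change 1.59 ± 0.28, adjusted p = 0.0012). The member that fell was TCH4, a xyloglucan endotransglucosylase, at 9538 and 9952 in wild type and 4459 and 4774 in hda6 (log2 fold change -1.08 ± 0.27, adjusted p = 0.011), and its call was lost without hda6 replicate 1 (adjusted p = 0.097), hda6 replicate 2 (adjusted p = 0.087) or wild-type replicate 2 (adjusted p = 0.056).

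Of 19 tested cold response genes, 6 rose and 3 fell, and 3 of the rises and 1 of the falls were kept without each library. Rises and falls made up 31.6% and 15.8% of the cold list, beside 11.2% and 12.5% of all tested genes. The 3 CBF genes, which encode the activators that bind the C-repeat or dehydration-responsive element, lie next to each other on chromosome 4 and all rose. CBF2 went from 23.8 and 57.95 to 181 and 342 (log2 fold change 2.71 ± 0.56, adjusted p = 0.0032, and 0.08 as adjusted p without hda6 replicate 2). CBF1 had 3 reads in both wild-type libraries together and 125 in both hda6 libraries, a depth-adjusted ratio of 42.1 (adjusted p = 2.6e-05) with an exact 95% counting interval of 14.1 to 207. CBF3 had 3 and 74 reads, a ratio of 24.95 (adjusted p = 9.9e-05) with an interval of 8.21 to 124. The 3 genes are close copies, and how reads that fit more than 1 of them were counted is not stated.

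The cold-induced effector genes that were called went in both directions. KIN2, which encodes a small hydrophilic stress protein, fell from 1862 and 2060.1 to 1262 and 918 (log2 fold change -0.86 ± 0.14, adjusted p = 0.00044). COR15A, whose chloroplast protein protects membranes in freezing, read 1832 and 1040.01 in wild type and 596 and 387 in hda6 (log2 fold change -1.52 ± 0.51, adjusted p = 0.043). Its call was lost without hda6 replicate 2 (adjusted p = 0.3), wild-type replicate 1 (adjusted p = 0.26) and hda6 replicate 1 (adjusted p = 0.1), with DESeq2 (adjusted p = 0.087) and with no filter on low values (adjusted p = 0.082). COR413IM1, a chloroplast inner membrane protein, rose from 267 and 293 to 509 and 635 (log2 fold change 1.02 ± 0.14, adjusted p = 0.0002).

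The 250 bases upstream of the annotated starts of these 3 genes are shown because they are where the core of the CBF-bound element, CCGAC, could be looked for. They were read from the RefSeq genome TAIR10.1 on the strand of the gene, with matches to CCGAC or its reverse complement GTCGG in capitals. The COR15A window (chr2:17712331-17712580, minus strand) holds 2 matches, and the KIN2 (chr5:5211469-5211718, plus strand) and COR413IM1 (chr1:10289667-10289916, minus strand) windows hold 0.
COR15A: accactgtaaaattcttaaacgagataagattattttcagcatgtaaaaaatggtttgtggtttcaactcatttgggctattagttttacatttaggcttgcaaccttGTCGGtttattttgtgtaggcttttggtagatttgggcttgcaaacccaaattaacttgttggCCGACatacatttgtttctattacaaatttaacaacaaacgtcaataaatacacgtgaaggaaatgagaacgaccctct
KIN2: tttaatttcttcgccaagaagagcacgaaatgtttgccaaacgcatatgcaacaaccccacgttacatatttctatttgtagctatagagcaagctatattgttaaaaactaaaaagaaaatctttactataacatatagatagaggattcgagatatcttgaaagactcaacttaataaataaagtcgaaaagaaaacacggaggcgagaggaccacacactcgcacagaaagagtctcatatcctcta
COR413IM1: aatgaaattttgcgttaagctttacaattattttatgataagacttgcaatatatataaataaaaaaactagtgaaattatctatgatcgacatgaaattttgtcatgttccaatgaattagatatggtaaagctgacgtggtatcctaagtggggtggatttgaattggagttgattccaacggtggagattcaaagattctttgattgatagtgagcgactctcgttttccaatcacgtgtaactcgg
Of all 32534 such windows in the genome, 11.7% hold at least 1 match. A match is a description of the letters and not a binding site.

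In the jasmonate list 13 of 36 tested members rose and 7 fell, and 5 and 2 of these calls were kept without each library. The rises and falls are 36.1% and 19.4% of the list, beside 11.2% and 12.5% of all tested genes. Against the other 6 mutants, 5 members were higher in hda6 and 12 were lower. LOX3, a lipoxygenase at the first step, rose from 267 and 238 to 621 and 764 (log2 fold change 1.45 ± 0.15, adjusted p = 1.4e-05), and OPR3, a later reductase, from 595 and 685 to 1402 and 1305 (log2 fold change 1.08 ± 0.12, adjusted p = 2.2e-05). The transcription factor MYC4, which activates jasmonate-responsive genes, fell from 658 and 643 to 429 and 444 (log2 fold change -0.58 ± 0.08, adjusted p = 0.00024). In the ethylene list 11 of 32 rose and 1 fell, with 3 rises kept without each library. Ethylene genes thus had shares of 34.4% and 3.1%, while against the other 6 mutants 4 were higher in hda6 and 6 lower. ACS5, a synthase of the ethylene precursor, rose from 31.8 and 31.97 to 78.3 and 105 (log2 fold change 1.48 ± 0.27, adjusted p = 0.0015), whereas the receptor gene ERS1 rose by little, from 1442 and 1454 to 1771 and 1946 (log2 fold change 0.36 ± 0.06, adjusted p = 0.0013).

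In the abscisic acid list 5 of 37 tested members rose and 5 fell, 13.5% in each direction and near the 11.2% and 12.5% of all tested genes. NCED3, the dioxygenase that limits abscisic acid synthesis, rose from 201 and 237 to 595 and 788 (log2 fold change 1.65 ± 0.17, adjusted p = 1.2e-05), and this was the only call of the list kept without each library. Of 97 tested auxin response genes, 17 rose and 12 fell, 17.5% and 12.4%, with 5 and 4 calls kept without each library. IAA29, an auxin-induced repressor, rose from 139 and 176 to 429.6 and 478 (log2 fold change 1.53 ± 0.15, adjusted p = 8.7e-06), and GH3.5, which joins auxin to amino acids, from 609 and 742 to 1770.1 and 2122 (log2 fold change 1.53 ± 0.14, adjusted p = 5e-06). SAUR78, of the small auxin-up RNA family, fell from 3372 and 3558 to 1689 and 1453 (log2 fold change -1.14 ± 0.12, adjusted p = 1.4e-05). In the gibberellin and brassinosteroid list 6 of 36 rose and 3 fell, among them GA3OX1, which makes bioactive gibberellin, from 492 and 441 to 253 and 244 (log2 fold change -0.91 ± 0.13, adjusted p = 0.00027).

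Genes of nitrogen use moved in both directions, at high levels of expression. Of 23 tested nitrate assimilation genes, 5 rose and 4 fell, and 3 and 2 of these were kept without each library. ASN1, a dark-induced asparagine synthetase, rose from 3697 and 4356 to 13539 and 14712 (log2 fold change 1.81 ± 0.20, adjusted p = 2.3e-05), and NIA1, a nitrate reductase, from 6243 and 6082 to 11663 and 8944 (log2 fold change 0.73 ± 0.09, adjusted p = 6.1e-05). LBD39, a repressor of nitrate-responsive genes, fell from 1197 and 1304 to 1037 and 896 (log2 fold change -0.37 ± 0.07, adjusted p = 0.002), and the ammonium transporter AMT1;2 fell as well. Of 28 senescence and starvation genes, 12 rose and 5 fell, with 7 and 1 kept without each library. For senescence and starvation genes the shares were 42.9% and 17.9%, beside the same 11.2% and 12.5% of all tested genes. SEN1, which is induced by darkness and sugar starvation, rose from 1363 and 1962 to 4386 and 5082 (log2 fold change 1.53 ± 0.18, adjusted p = 5.1e-05), while SWEET15 of the same list fell as given above.

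Of 27 sugar transporter genes, 6 rose (22.2%) and 4 fell (14.8%), beside 11.2% and 12.5% of all tested genes. STP1, a hexose importer, rose from 5142 and 5551 to 8452 and 8495 (log2 fold change 0.67 ± 0.14, adjusted p = 0.0029), and SWEET11, which exports sucrose for phloem loading, fell from 2399 and 2626 to 1877 and 1953 (log2 fold change -0.39 ± 0.06, adjusted p = 0.00023). Of 25 tested Calvin cycle and photorespiration genes, 7 fell (28%) and 0 rose. Against the other 6 mutants, 6 members of this list were higher in hda6 and 0 were lower. GLDP1, a glycine decarboxylase subunit, fell from 74264 and 71436 to 52764 and 47491 (log2 fold change -0.54 ± 0.08, adjusted p = 0.00023). Of 42 light harvesting and photosystem genes, 15 rose and 3 fell, with 2 rises kept without each library. The shares were 35.7% and 7.14%. Against the other 6 mutants, 1 member of the photosystem list was higher in hda6 and 8 were lower, so the balance was not the same in the 2 comparisons. LHCB1.4, an antenna protein of photosystem II, rose most over wild type, from 8052 and 6172 to 13032 and 12213 (log2 fold change 0.84 ± 0.14, adjusted p = 0.00062), and the other rises were under 1.5-fold.

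Defence metabolism was represented by the indole glucosinolate and camalexin list, where 5 of 17 tested members rose (29.4%) and 1 fell (5.88%). Over all tested genes the shares were 11.2% and 12.5%. CYP81F2, which hydroxylates indole glucosinolates, rose from 99.4 and 89.9 to 330.1 and 392 (log2 fold change 1.92 ± 0.15, adjusted p = 8.4e-07), and MYB51, a regulator of the pathway, from 217 and 253 to 442 and 460.2 (log2 fold change 0.94 ± 0.13, adjusted p = 0.00017). In the flavonoid list 1 of 18 rose (5.56%) and 4 fell (22.2%). The member that rose, MYBL2, is a repressor of anthocyanin synthesis and went from 902 and 1141 to 1745 and 1779.9 (log2 fold change 0.80 ± 0.12, adjusted p = 0.00031), and FLS1, flavonol synthase, fell from 803 and 609 to 412 and 376 (log2 fold change -0.83 ± 0.16, adjusted p = 0.0022).

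Several protein families, defined by the wording of the annotated product and chosen after their values were seen, had unequal numbers of rises and falls. Of 79 tested TIR-NBS-LRR genes, intracellular immune receptors, 24 rose and 4 fell, and 11 of the rises were kept without each library. Shares of 30.4% higher and 5.06% lower stood beside 11.2% and 12.5% of all tested genes. AT5G41750 rose from 129 and 204 to 787 and 948 (log2 fold change 2.41 ± 0.28, adjusted p = 4e-05) and RPP4, a receptor for downy mildew resistance, from 529.9 and 567 to 953 and 1077 (log2 fold change 0.88 ± 0.09, adjusted p = 9.2e-06). Members of these families are often close copies in clusters, so reads may be shared between them.

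Of 111 lectin and lectin kinase genes, whose products bind sugars and many of which sit at the cell surface, 32 rose (28.8%) and 9 fell (8.11%). Over all tested genes the shares were 11.2% and 12.5%. The mannose-binding lectin gene AT1G52100 rose from 156 and 159.9 to 536 and 489 (log2 fold change 1.69 ± 0.16, adjusted p = 4.5e-06). Of 183 F-box genes, which encode substrate receptors of ubiquitin ligases, 31 rose (16.9%) and 6 fell (3.28%). FBS1, a stress-induced F-box gene, rose from 102 and 159 to 314 and 422 (log2 fold change 1.51 ± 0.21, adjusted p = 0.00021). Of 12 purine permeases 5 rose and 0 fell, including PUP7, which lies beside its close copy PUP8, from 74.6 and 84.9 to 280.3 and 317 (log2 fold change 1.89 ± 0.12, adjusted p = 1.6e-07). Of 11 wall-associated kinase genes 4 rose and 1 fell, including WAKL2, from 116 and 125 to 322 and 354 (log2 fold change 1.48 ± 0.14, adjusted p = 7.5e-06).

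Of 62 RNA helicase genes, 23 fell and 0 rose, and of 52 tRNA synthetase and ligase genes, 18 fell and 0 rose, which are 37.1% and 34.6% against 12.5% of all tested genes. EMB3108, a DEAD-box helicase, fell from 1023 and 969 to 734 and 764 (log2 fold change -0.41 ± 0.07, adjusted p = 0.00087), and EDD1, a glycine-tRNA ligase, fell from 1656 and 1622 to 1347 and 1298 (log2 fold change -0.31 ± 0.05, adjusted p = 0.00095). Of 253 pentatricopeptide repeat genes, which process organelle RNA, 34 fell and 3 rose, so the share that fell (13.4%) was near that of all genes while the share that rose (1.19%) was below 11.2%. Of the calls in these 3 families, 8, 6 and 8 falls were kept without each library. Of 96 ribosomal protein genes, 5 were higher and 7 lower. The median wild-type level was 584 for the helicases and 1117 for the tRNA group, beside 287 for all tested genes, and the part of level in these counts was not tested.

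In 2 lists on growth and division, every called member fell. Of 24 tested KNOX and leaf polarity genes 8 fell (33.3%) and 0 rose, of which the call of KNAT3, a homeobox gene, was kept without each library, from 1924 and 2079 to 1659 and 1461 (log2 fold change -0.36 ± 0.07, adjusted p = 0.0022). Of 62 cell cycle and replication genes 9 fell and 0 rose, 5 of them kept without each library, a share of 14.5% that is near the 12.5% of all genes. RNR2A, a subunit of the ribonucleotide reductase that makes DNA precursors, fell from 858 and 929 to 589.9 and 567 (log2 fold change -0.63 ± 0.07, adjusted p = 4.8e-05). SMR1, an inhibitor of cyclin-dependent kinases, fell as well, from 316 and 336 to 196 and 167 (log2 fold change -0.85 ± 0.15, adjusted p = 0.00088).

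**Figure D3:**
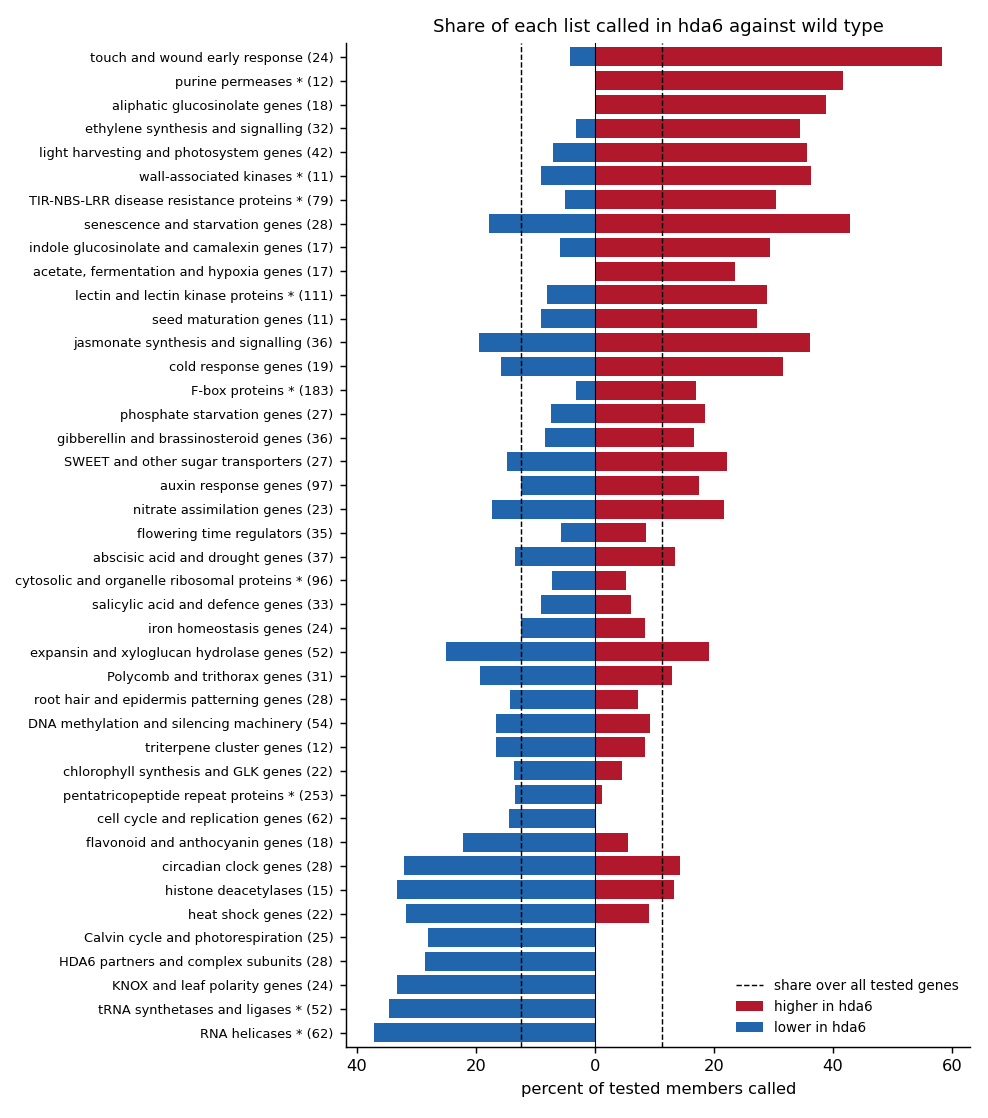
Percent of the tested members of each list called higher (red, right) or lower (blue, left) in hda6, with the number of tested members in brackets and dashed lines at 11.2% and 12.5%, the shares over all tested genes; an asterisk marks families chosen after their values were seen, and groups with under 10 tested members are not drawn. The touch and wound list reaches 58.3% higher, and the RNA helicases reach 37.1% lower with no member higher. Groups without an asterisk were chosen with earlier results of these data known.

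Among genes of DNA methylation and silencing, 5 of 54 tested members rose and 9 fell, shares of 9.26% and 16.7% that are near the 11.2% and 12.5% of all tested genes, so the list as a whole did not stand out and the values below are those of single genes. IBM1, a histone demethylase that keeps methylation of histone H3 lysine 9 out of genes, fell from 484 and 502 to 243 and 268 (log2 fold change -0.95 ± 0.09, adjusted p = 4e-06). ROS1, a glycosylase that removes methylated cytosine, fell from 1072 and 1016 to 667 and 562 (log2 fold change -0.77 ± 0.07, adjusted p = 3e-06). RDR6, an RNA polymerase that makes double-stranded RNA for small RNA pathways, fell from 558 and 518 to 338 and 324 (log2 fold change -0.70 ± 0.07, adjusted p = 5.5e-06). At these 3 genes the 2 mutant libraries were below both wild-type libraries and the call was kept without each library. AGO3, an Argonaute that binds small RNAs, rose from 83.5 and 102 to 278 and 254 (log2 fold change 1.52 ± 0.27, adjusted p = 0.001), and the methyl-CpG-binding gene MBD7 from 164 and 158 to 249 and 267 (log2 fold change 0.67 ± 0.11, adjusted p = 0.0007).

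Of 15 tested histone deacetylase genes 2 rose and 5 fell, 3 of the falls being kept without each library: HDT1, HDT2 and HDA14. Rises and falls made up 13.3% and 33.3% of this list, beside 11.2% and 12.5% of all tested genes. HDT1, of the plant-specific HD2 class, fell from 972 and 870.2 to 694 and 605 (log2 fold change -0.50 ± 0.09, adjusted p = 0.0009), while HDA19, the close relative of HDA6, read 2088 and 2222 in wild type and 2245 and 2249 in hda6 (log2 fold change 0.06 ± 0.30, adjusted p = 0.91). Of 28 genes of partners and complex subunits 8 fell (28.6%) and 0 rose. TPR3, a TOPLESS-related corepressor, fell from 489 and 467 to 304 and 327 (log2 fold change -0.60 ± 0.08, adjusted p = 0.00019), and FVE, a WD-repeat partner of HDA6, from 1017 and 983 to 835 and 797 (log2 fold change -0.29 ± 0.06, adjusted p = 0.0029). Of 31 Polycomb and trithorax genes 4 rose (12.9%) and 6 fell (19.4%). The pair RING1A and RING1B, which encode subunits that attach ubiquitin to histone H2A, rose: RING1A from 120.3 and 136 to 233 and 236 (log2 fold change 0.87 ± 0.13, adjusted p = 0.00029) and RING1B from 128 and 131 to 245 and 278 (log2 fold change 1.003 ± 0.15, adjusted p = 0.00036). They are also the 2 rises of that list kept without each library.

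**Figure D4:**
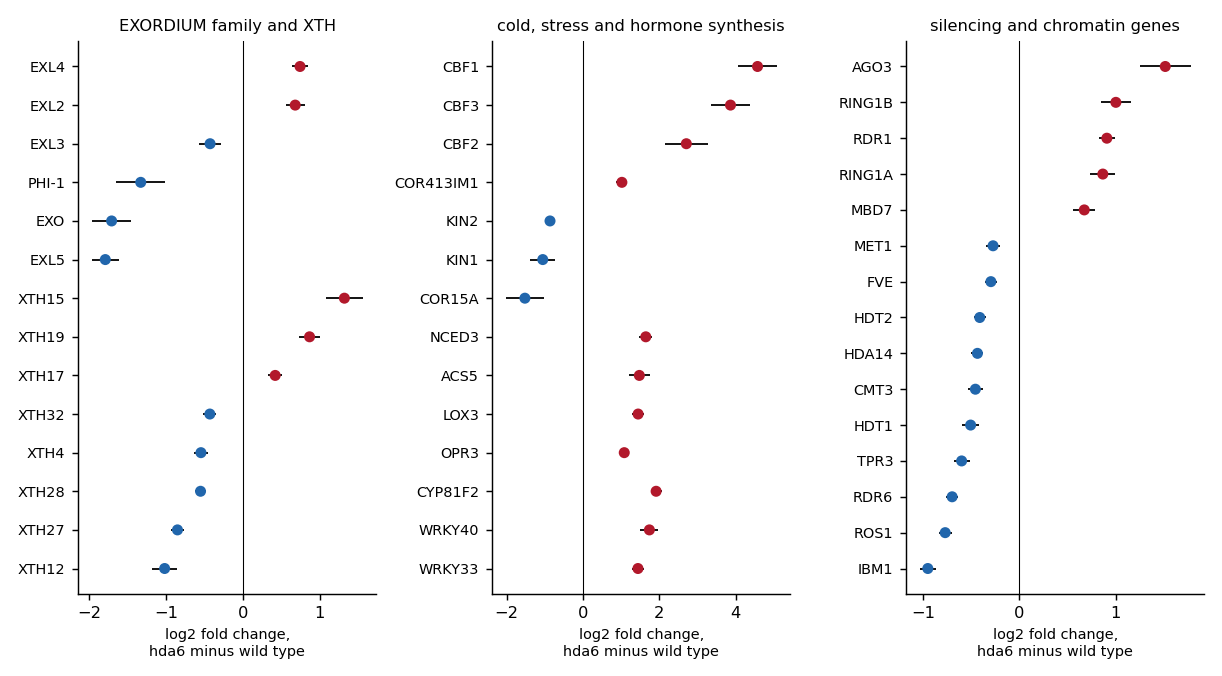
Log2 fold change of hda6 over wild type for members of 3 groups, red where higher and blue where lower. Bars are standard errors from the fit of all 16 libraries (n = 2 libraries per genotype), not the spread of the hda6 and wild-type libraries alone. In the left panel EXL5 (-1.79) and EXO (-1.71) lie lowest while EXL4 (0.74) and EXL2 (0.68) lie above 0, in the middle panel the 3 CBF genes lie highest and COR15A (-1.52) lowest, and in the right panel IBM1 is lowest and AGO3 highest.

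Clock genes changed by small amounts, with 4 of 28 tested members higher (14.3%) and 9 lower (32.1%). Over all tested genes the shares were 11.2% and 12.5%. LHY, a morning transcription factor, fell from 6658 and 7031 to 5319 and 4994 (log2 fold change -0.41 ± 0.06, adjusted p = 0.00017), and PRR7, which represses it, rose from 971 and 1006 to 1338 and 1331 (log2 fold change 0.43 ± 0.07, adjusted p = 0.00037). The hour of sampling is not in the labels, and its part in these values was not tested. Of 22 heat shock genes 2 rose and 7 fell, with ROF1, a heat-induced chaperone partner, at 2334 and 2273 in wild type and 1637 and 1549 in hda6 (log2 fold change -0.53 ± 0.06, adjusted p = 5.7e-05).

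In the acetate, fermentation and hypoxia list 4 of 17 tested members rose and 0 fell, none kept without each library; PDC3 read 29.8 and 21.98 in wild type and 51.8 and 47.9 in hda6 (log2 fold change 0.93 ± 0.24, adjusted p = 0.012), with an adjusted p of 0.073 without hda6 replicate 1, 0.061 without hda6 replicate 2 and 0.11 without wild-type replicate 2, and 0.086 with DESeq2. For the lists that follow, the shares over all tested genes were 11.2% higher and 12.5% lower. Of 18 aliphatic glucosinolate genes 7 rose (38.9%) and 0 fell, and of 27 phosphate starvation genes 5 rose (18.5%) and 2 fell (7.41%). Of 12 triterpene cluster genes 1 rose and 2 fell, and of 7 tested floral organ genes 1 rose and 0 fell. In the iron list 2 of 24 rose and 3 fell, in the salicylic acid and defence list 2 of 33 rose and 3 fell, and in the chlorophyll list 1 of 22 rose and 3 fell. GH3.12 of the salicylic acid list, also called PBS3 and needed to make salicylic acid, fell from 189 and 224 to 73.1 and 79.9 (log2 fold change -1.42 ± 0.28, adjusted p = 0.0023). Of 28 root hair genes 2 rose and 4 fell. Of 35 flowering genes 3 rose and 2 fell. Of 11 tested seed maturation genes 3 rose and 1 fell, while 16 did not pass the filter; the late embryogenesis gene M17 read 68.5 and 175 in wild type and 471 and 381 in hda6 (log2 fold change 1.94 ± 0.40, adjusted p = 0.0031, and adjusted p = 0.051 without hda6 replicate 1). The summed markers of seed stood at 12.9 and 27.98 in wild type and at 114 and 111 in hda6, with 4 of the 6 markers (CRU3, OLEO1, SESA1 and EM1) under 10 in each library, and their part in the value of M17 was not tested.

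Exon number, length and annotated neighbours were not used to choose the genes that changed by 2-fold or more. Of the 290 expressed genes at least 2-fold higher, 30% have a single exon, as do 29.5% of the 105 at least 2-fold lower, beside 12.9% of all expressed genes. Their median lengths were 1936 and 1997 bp, beside 2449 bp. Their median wild-type levels were also lower, at 77.7 and 123 normalised counts beside 356, a level that the choice of these genes did use, and the part of level in these differences was not tested. An annotated pseudogene lay within 2 kb of 9.66% of the expressed genes at least 2-fold higher and of 7.14% of all expressed genes. Of the 270 genes that rose from a wild-type mean under 5, by contrast, 26.3% had such a neighbour and 14.8% are annotated as other than protein-coding, beside 1.72% of the expressed genes at least 2-fold higher.

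Most runs of neighbours that moved together held a gene that the wild type did not express. Of the 880 genes called at 2-fold or more, only 290 higher and 105 lower ones were expressed in wild type. The part of this in the make-up of the runs was not tested. Along the chromosomes, 63 runs of 2 or more tested neighbours were at least 2-fold changed in 1 direction, 60 upward and 3 downward, and in 7 of them every gene was expressed in wild type. The longest of these 7 had 3 genes. A run on chromosome 2 (19534473 to 19541585) holds the hydrolase gene AT2G47630, the small nuclear ribonucleoprotein gene AT2G47640 and UXS4, which makes UDP-xylose for wall polymers. UXS4 rose from 604 and 601 to 1316 and 1326 (log2 fold change 1.13 ± 0.08, adjusted p = 2.4e-07), AT2G47630 from 529.9 and 521 to 1137 and 1016 (log2 fold change 1.03 ± 0.07, adjusted p = 2.6e-07) and AT2G47640 from 324 and 304 to 643 and 685 (log2 fold change 1.08 ± 0.09, adjusted p = 1.6e-06). The annotated ends of AT2G47640 and UXS4 overlap as well. A run on chromosome 1 (12177673 to 12190461) holds 3 genes of leucine-rich repeat proteins, of which AT1G33590 rose most, from 1192 and 1059 to 2813 and 3245 (log2 fold change 1.43 ± 0.07, adjusted p = 2.7e-08). These runs were picked after their values were seen.

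Set against the other 6 mutants, in a contrast whose difference holds no wild-type library, although those libraries shared in the estimate of the spread, 2297 genes (11.0% of those tested) were higher in hda6 and 1943 (9.32%) lower. Of the 1858 expressed genes higher in hda6 than in wild type, 761 were also higher than in the other mutants, 40 were lower and 1057 passed neither way. Of the 2582 lower than in wild type, 752 were also lower than in the other mutants, 176 were higher and 1654 passed neither way. Both comparisons contain the hda6 libraries, so these counts are not independent. Without hda6 replicate 1 the genes called against the other mutants were 911 higher and 604 lower, and without hda6 replicate 2 they were 1091 and 824.

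QQS lay on opposite sides of the wild-type libraries in hda6 and in the rest. All 12 libraries of the other mutants, at 16.9 to 73.3, lay below the wild-type libraries at 209.8 and 222. Both hda6 libraries, at 903 and 907, lay above the wild-type ones (difference from the other mutants 4.44 ± 0.31 on the log2 scale, adjusted p = 1.8e-07). ROS1 showed the reverse order, with 667 and 562 in hda6, 1072 and 1016 in wild type and 1197 to 1740.2 in the other mutants (difference -1.24 ± 0.05, adjusted p = 1.1e-09). XTH12, too, was below wild type in hda6, at 82.3 and 88.8 against 178 and 171, with 117 to 341 in the other mutants (difference -1.44 ± 0.12, adjusted p = 1.6e-06). At AT5G26270 the difference was 5.68 ± 0.14 (adjusted p = 1.5e-11), and at AT1G67105 it was 4.49 ± 0.19 (adjusted p = 1.1e-09). The side of wild type on which a mutant lay, as at QQS and ROS1, rests on the same wild-type libraries for every mutant. Whether those libraries were themselves shifted at these genes was not tested. Only the differences from the other mutants hold no wild-type library.

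The neighbours AT5G35480 and MRU1 had opposite signs in hda6 and in the mutant of the other deacetylase, hda19, a difference that was not tested by itself. The log2 fold change over wild type of MRU1 was 3.89 in hda6 and -2.11 in hda19. That of AT5G35480 was 3.61 in hda6 and -2.86 in hda19. Both mutants share the wild-type libraries. From the mean of the other mutants, hda19 among them, hda6 differed by 3.38 at MRU1 and 3.47 at AT5G35480 on the log2 scale. As these differences are smaller than the rises over wild type, that mean lay above wild type at both genes, unlike hda19. VSP2, a jasmonate-induced storage protein, stood at 534 and 461 in hda6, 1022 and 771 in wild type and 599 to 5209 in the other mutants (difference from the other mutants -1.73 ± 0.16, adjusted p = 3.2e-06); its fall against wild type was lost without hda6 replicate 2 (adjusted p = 0.12) and wild-type replicate 1 (adjusted p = 0.099). By contrast, the falls of the RNA helicase EMB3108 and of HDT1 had differences from the other mutants of 0.07 ± 0.05 (adjusted p = 0.41) and -0.04 ± 0.07 (adjusted p = 0.68), which did not pass the threshold.

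**Figure D5:**
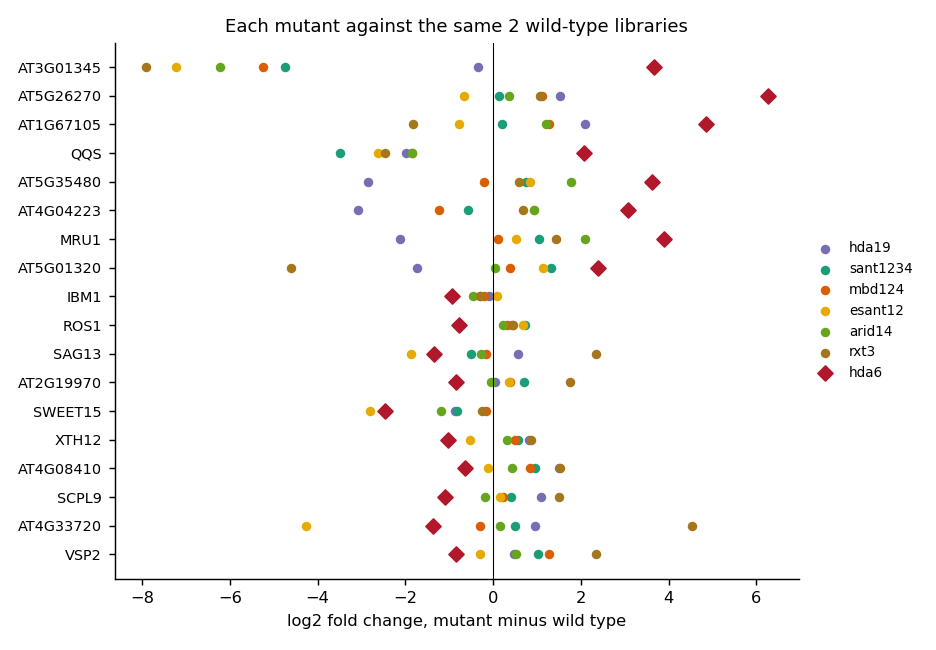
Log2 fold change of each mutant over the same 2 wild-type libraries for 18 genes, ordered by the difference between hda6 (red diamonds) and the mean of the other 6 mutants (coloured points). At QQS and ROS1 the hda6 point lies on the other side of 0 from all 6 other mutants, while at SWEET15 the esant12 mutant lies below hda6.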

How the data were processed

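RNA-seq libraries were made from 14-day-old seedlings of 8 genotypes, 2 libraries each. The authors deposited 1 table of edgeR-normalised expression signal for 32548 genes, and per the submitters' processing notes reads were aligned with HISAT2 2.1.0 to TAIR10 and counted with featureCounts before edgeR. The strand setting, the treatment of reads that fit several genes and the filters are not given in the sources used here. The deposited values are not whole numbers and behave as counts adjusted to a common library size, and solving for that adjustment returned whole reads for 100% of the values within a relative tolerance of 1e-06, with 19259579 to 19522197 recovered reads in the 4 libraries compared. Depth was thus close to equal between libraries. Because the deposited signal is normalised, the count test was not the main test.

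The 20846 genes that reached a value of 10 in any 2 or more of the 16 libraries were tested with limma 3.58.1 in R 4.3.3, with an intensity trend, on log2(value + 1). Fold changes are on that scale, which understates the change of low genes. All 16 libraries entered 1 fit with 8 genotypes, 8 residual degrees of freedom and no covariate, and p-values were adjusted by Benjamini-Hochberg over all tested genes with a threshold of 0.05. The contrasts were hda6 minus wild type and hda6 minus the mean of the other 6 mutants. The fit was also run on counts simulated with the means and spreads of these data, and the outcome is not given here. Alternatives were edgeR 4.0.16 and DESeq2 1.42.0 on the recovered reads, another pseudocount, filters, scaling and threshold, a replicate block, only the groups compared, and leaving out each library. Counting intervals (95%, exact) cover counting error only.

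Genes were named by a rule: HDA6 and HDA19, the 15 largest rises and 15 largest falls among called expressed genes whose libraries did not overlap and whose higher group mean reached 100, for each list the called genes with the smallest adjusted p (no more than 4 higher and 4 lower), and the 8 genes in each direction farthest from the other mutants; the text prints a selection of these, mostly calls kept without each library. The gene lists and the members were chosen with earlier results of these data known. The 10 families defined by product wording, and with them AT5G41750, RPP4, EXL4, EXL2, PUP7, WAKL2, AT1G52100, FBS1, EMB3108 and EDD1, and the neighbouring genes, were chosen after their values were seen. Gene models and upstream windows came from the RefSeq annotation of TAIR10.1.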

Additional observations from a re-analysis of the deposited data

Results flagged for a closer look

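For 16 genes that were called in the same direction against wild type, the level in hda6 also differed from the mean of the other 6 mutants by the test of that difference itself. Above the other mutants were AT3G01345 (8.95 on the log2 scale), AT5G26270 (5.68), the noncoding RNA gene AT1G67105 (4.49), QQS (4.44), AT5G35480 (3.47), the noncoding RNA gene AT4G04223 (3.46), MRU1 (3.38) and the pyruvate decarboxylase gene AT5G01320 (2.95). Below them were the storage protein gene VSP2 (-1.73), AT4G33720 (-1.65), the carboxypeptidase-like gene SCPL9 (-1.63), AT4G08410 (-1.51), SWEET15 (-1.44), XTH12 (-1.44), AT2G19970 (-1.38) and the senescence-associated gene SAG13 (-1.36). They are the 8 in each direction that stood farthest from the other mutants, so their sizes are those of a selection. As described above, the calls of AT3G01345 and VSP2 against wild type were lost without some single libraries. The wild-type libraries of AT3G01345 were also far apart. Groups of 2 libraries are too small for a check of single outlying libraries.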

How the results depend on the processing

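The counts of called genes depended on single libraries and on the threshold more than on scaling, filter or pseudocount. Leaving out 1 library at a time gave 1164 to 1782 genes higher and 1226 to 1797 lower than wild type, 854 to 1399 and 1210 to 1775 among expressed genes, and 911 to 2264 higher and 604 to 1879 lower than the other mutants. DESeq2 on the recovered reads called 1551 higher and 1349 lower, of which 1348 of the lower were expressed genes, and 963 lower than the other mutants, where edgeR called 2572, 2305, 2294 and 1812. An adjusted p under 0.01 left 1298 higher and 1233 lower, 981 and 1228 among expressed genes, and 1242 and 862 against the other mutants. A log2 fold change of at least 1 left 751 and 129, 290 and 105, and 533 and 130. With the replicate block the counts were 2479 higher and 2770 lower than wild type, beside 2343 and 2609 without it, and 1 call of a named gene was lost. The deviations of same-numbered hda6 and wild-type libraries correlated at 0.01. The other genotypes were not compared in this way, so this value cannot decide whether the replicate numbers pair the samples. Of 2613 tests of 218 named genes under the alternatives, 355 lost their call and 0 reversed, the lost calls being most often those without hda6 replicate 2 (86) or wild-type replicate 1 (66). The cause was not tested. Genes under the stricter filter of 50 had no value there. Depth was nearly equal, and it limits what can be said of genes with a few reads, such as CBF1 and CBF3 in wild type.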
